A study of Arabidopsis thaliana with 12 samples.

Results

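ARR15 (AT1G74890) is a type-A response regulator of Arabidopsis, and it was followed through its single-gene probe set, 262212_at, which is 1 of 22746 probe sets without controls on the array. It was chosen by its log2 signal in these same arrays, which moved with light and bud position. Its levels and differences are therefore given as a description with no test, and tests are kept for other cytokinin genes. Transcripts were measured in dissected rosette axillary buds of the Col-8 accession (stock CS60000, Col-0 background) at developmental stage 6.00 on Affymetrix ATH1 arrays, with 3 arrays in each of 4 groups. The light conditions differed in the red to far-red ratio (R:FR). The groups were bud n-2, a lower bud, in low and in high R:FR (called low-R:FR and high-R:FR n-2 buds), and bud n, the uppermost, in low and in high R:FR (called low-R:FR and high-R:FR n buds). Each unmutated plant had its own tube in a divided chamber, which let R:FR differ, and all shared an 18 h photoperiod at 185 micromoles per square metre per second, with 24 °C by day, 18 °C by night and 3 days at 4 °C. The labels give no value for either R:FR, no plant age, no number of buds per sample, and no word on whether the replicates were grown as separate batches. A p-value here reflects the spread between arrays alone.

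Cytokinins are hormones that promote the outgrowth of axillary buds. In their signalling chain, receptor histidine kinases pass phosphate through shuttle proteins (AHPs) to nuclear type-B response regulators, which are transcription factors. These switch on genes of the type-A response regulators, ARR15 among them, and the type-A proteins in turn dampen the response, so that type-A transcripts are widely used as a readout of cytokinin signalling. Plants read a low R:FR as shade cast by neighbours, and shade is known to restrain branching.

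On the deposited values, ARR15 stood highest in the lower bud under high R:FR and lowest in the same bud under low R:FR. The uppermost bud lay between these levels under either light. Which bud stood lower under low R:FR is not settled, because the signal there was weak in both. Their order reversed when values in the dim range, defined below, were raised to its limit. In low-R:FR n-2 buds the ARR15 intensity was 7.01, 15.3 and 15.8 in replicates 1 to 3. In high-R:FR n-2 buds it was 48.8, 77.9 and 97.7. Every array of low-R:FR n-2 buds therefore lay below every array of the same bud under high R:FR. In low-R:FR n buds the intensity was 18.9, 21.5 and 18.4, and in high-R:FR n buds it was 32.6, 31.0 and 30.6. These groups too were apart, with a narrower gap than in the lower bud. In bulk tissue, fewer cells that express ARR15 and less ARR15 RNA per cell cannot be told apart.

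**Figure D1:**
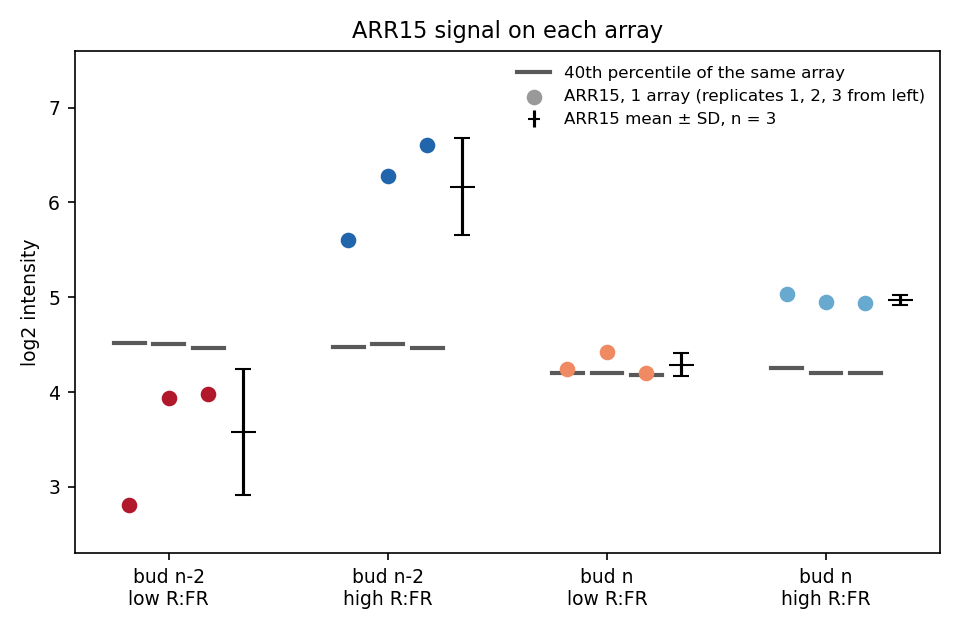
ARR15 signal (log2 intensity, vertical axis) on each of 12 arrays, by bud position and R:FR, with short bars at the 40th percentile of the same array and the mean ± SD of each group (n = 3). The 3 arrays of low-R:FR n-2 buds lie below their bars, those of low-R:FR n buds lie at them, and the arrays of both high R:FR groups lie above them.

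The dim range of an array was taken as everything up to the 40th percentile of its probe sets, since no detection calls were used. That limit was an intensity of 22.0 to 23.0 in low-R:FR n-2 buds and 22.1 to 22.7 in high-R:FR n-2 buds. It was 18.1 to 18.4 in low-R:FR n buds and 18.4 to 19.1 in high-R:FR n buds. ARR15 was dim on all 3 arrays of low-R:FR n-2 buds, at 0.305 to 0.718 times the limit, and on 0 of the other 9 arrays. Under high R:FR it stood clear of the limit, at 2.19 to 4.42 times in bud n-2 and 1.67 to 1.71 times in bud n. The low-R:FR n bud sat at the edge, at 1.02 to 1.17 times the limit, so its level there is barely distinguishable from dim signal.

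Ranks within each array, which do not depend on the scaling of the array, gave the same order of groups. They carry the same dim values, so they cannot settle the order of the buds under low R:FR. ARR15 was brighter than 31.8% ± 6.34 of all probe sets in low-R:FR n-2 buds (SD, n = 3) and 61.2% ± 8.23 in high-R:FR n-2 buds. The corresponding ranks were 40.7% ± 0.819 in low-R:FR n buds and 46.7% ± 0.631 in high-R:FR n buds. The difference between low and high R:FR was -29.3 percentile points in bud n-2 and -5.98 points in bud n.

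Replicates in the lower bud were much less alike than those in the uppermost bud. The SD of log2 intensity was 0.66 in low-R:FR n-2 buds and 0.51 in high-R:FR n-2 buds, against 0.12 in low-R:FR n buds and 0.050 in high-R:FR n buds. These SDs were compared only with probe sets above the dim limit on at least 3 of 12 arrays. Among those within 0.5 log2 units of the group's ARR15 level, 91.8% and 99.1% had a smaller SD in bud n-2 under low and high R:FR. In bud n, 17.3% under low R:FR and 5.45% under high R:FR had a smaller SD. In low-R:FR n-2 buds the ARR15 level was itself dim, and only 208 probe sets could be compared. The 91.8% is therefore not a share of all signals at that level. The wide spread in low-R:FR n-2 buds came from replicate 1, at an intensity of 7.01, and in high-R:FR n-2 buds the intensity of the highest array was 2.00 times that of the lowest.

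In the lower bud, the mean log2 intensity of ARR15 was 3.57 ± 0.66 under low R:FR and 6.17 ± 0.51 under high R:FR (SD, n = 3 each). The log2 difference was -2.59 on the deposited values, -1.67 with dim values raised to their array's limit and -1.24 with 32 added before log2. As the low R:FR arrays were dim, the fold is a lower bound, and ARR15 was at least 3.18-fold lower under low R:FR. A stricter dim limit at the 50th percentile lowers that bound to 1.64-fold. All 9 pairings of a low with a high R:FR array had the lower value under low R:FR, by between 3.09-fold and 13.9-fold on the deposited values. Over all probe sets tested, the arrays of these groups did not overlap for 28.8%, from which nothing is read here because this contrast was used to choose ARR15.

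In the uppermost bud the mean was 4.29 ± 0.12 under low R:FR and 4.97 ± 0.050 under high R:FR, a log2 difference of -0.68, or 1.61-fold lower under low R:FR. All 9 pairings of arrays were lower under low R:FR, by 1.42-fold to 1.78-fold, and 11.6% of all probe sets tested had groups that did not overlap in this contrast. With 32 added before log2 the difference was -0.30. With the dim limit at the 50th percentile both bud n groups are dim, and then no fold can be given. The difference in bud n-2 minus that in bud n was -1.91 on the log2 scale. With dim values raised it was -0.99.

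On the deposited values, though not with dim values raised, the 2 light conditions gave opposite orders of the buds for ARR15. Each group of arrays enters both a light and a position contrast, so these differences are not independent of each other. Under high R:FR its mean log2 intensity was 6.17 in bud n-2 and 4.97 in bud n, or 2.29-fold higher in bud n-2, and all 9 pairings of arrays were higher in bud n-2. The smallest of these pairings was 1.49-fold and the largest 3.19-fold, and over all probe sets tested 45% had groups that did not overlap. With the dim limit at the 50th percentile bud n was dim, and ARR15 was then at least 1.87-fold higher in bud n-2. In low R:FR the deposited values were lower in bud n-2, at 3.57, than in bud n, at 4.29, with 61.1% of all probe sets without overlap. No fold can be read from this difference, since bud n-2 was dim and its limit lay above the ARR15 signal of all 3 bud n arrays. It moved to 0.21, in the opposite direction, with dim values raised, and leaving out replicate 1 of the low-R:FR n-2 buds, which lay lowest, left it at -0.33.

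**Figure D2:**
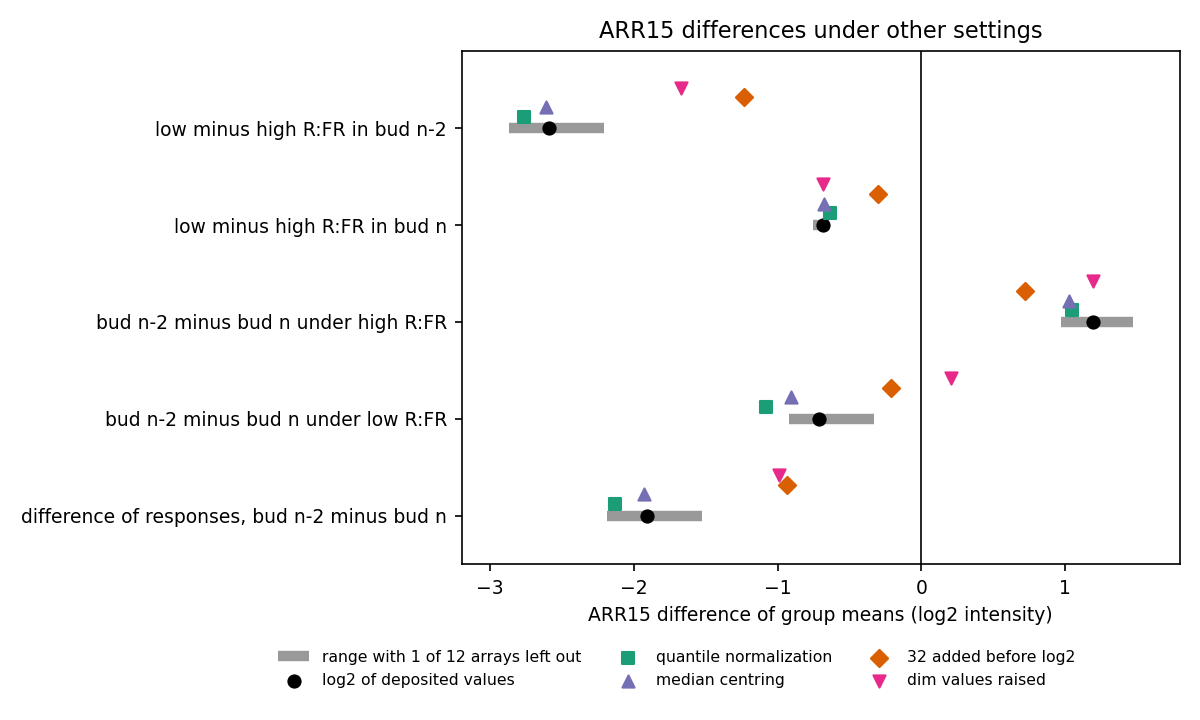
ARR15 log2 differences (horizontal axis) in 5 contrasts, from the deposited values and from 4 other treatments of the values, with grey bars for the range when each of 12 arrays is left out. The difference in bud n-2 lies between -2.87 and -1.24 in all of them, and the position difference under low R:FR lies on both sides of 0.

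The 4 levels of ARR15 thus ran from high-R:FR n-2 buds through high-R:FR n buds and low-R:FR n buds to low-R:FR n-2 buds. Between the first and the second group in that order the gap between nearest arrays was 0.58 log2 units, between the second and the third 0.51, and between the third and the last 0.22. No neighbours in the order overlapped. Taken as upper minus next group, the means of the last pair differed by 0.71 on the log2 scale. That is close to the SD of 0.66 in low-R:FR n-2 buds. The order of this pair rests on values in the dim range, so it is not settled. For the first pair the means differed by 1.20, beside an SD of 0.51 in high-R:FR n-2 buds. For the middle pair, the light conditions in bud n, they differed by 0.68, beside SDs of 0.12 and 0.050. Pooled over the 4 groups the SD of ARR15 was 0.42. As ARR15 was chosen from these values, the SDs stand beside the steps as a description and not as a test.

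**Figure D3:**
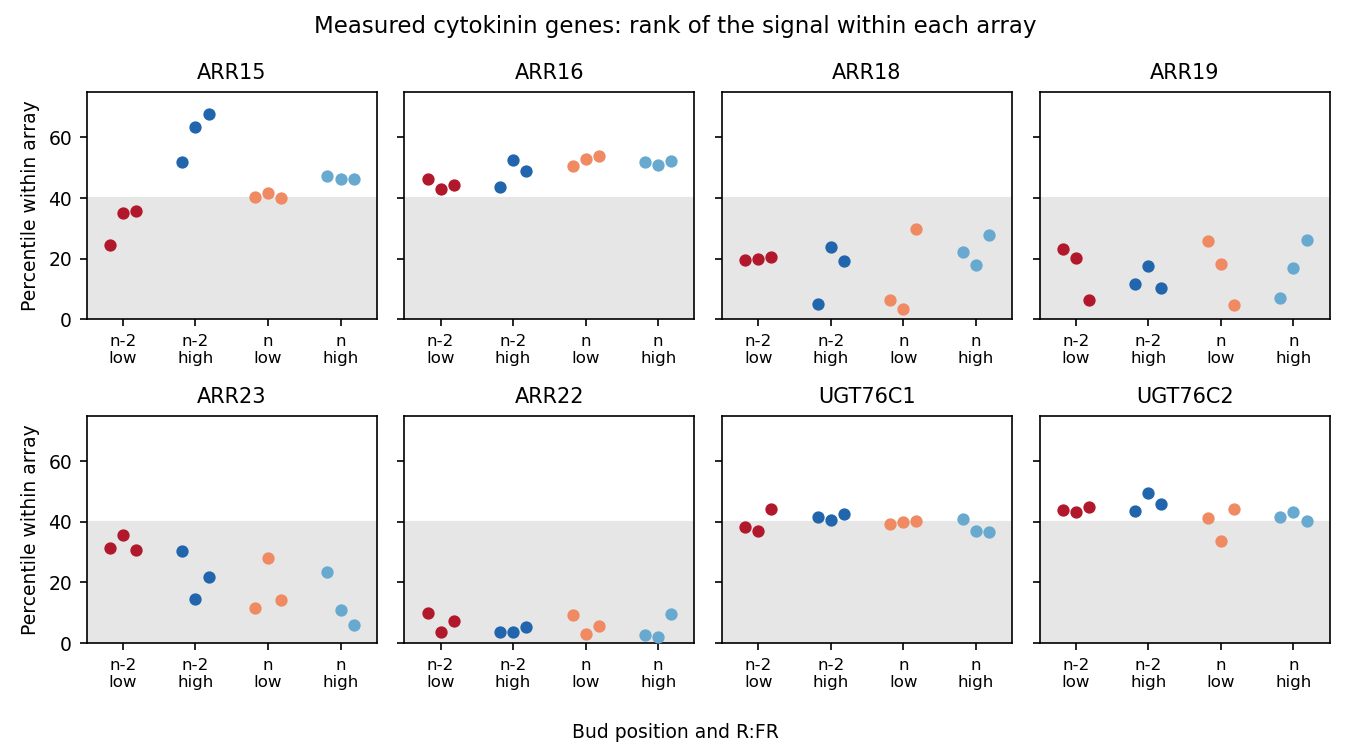
Rank of the signal within each array (percentile of all probe sets, vertical axis) for ARR15 and the 7 other cytokinin genes with a named probe set, with 3 arrays per group and the dim range shaded. ARR15 spans 24.5 to 67.9, ARR16 stays between 43.1 and 53.7, and ARR18, ARR19, ARR22 and ARR23 lie in the dim range on all 12 arrays.

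Few other genes of the cytokinin pathway could be followed by name. Of 81 further loci on lists of response regulators, kinases, phosphotransfer proteins, synthesis, breakdown, transport and response factors, 7 had a named single-gene probe set, and 3 of these passed the filter on dim signal. None of the 5 histidine kinases, the 6 phosphotransfer proteins, the 20 synthesis genes or the 7 transport genes was among them. The 15 genes of a bud outgrowth list, BRC1 and the strigolactone MAX genes included, had no named probe set either and were not analysed here. CLV3 is the stem cell peptide gene of the shoot meristem. It was the only gene with a named probe set on a list of 10 meristem and cold regulators, and was dim on all 12 arrays.

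ARR16 was the only other type-A regulator with a named probe set, on a list of 10 with ARR15. Its intensity was 35.7, 28.9 and 30.9 in low-R:FR n-2 buds and 29.1, 48.0 and 41.2 in high-R:FR n-2 buds. It was 39.8, 44.3 and 47.8 in low-R:FR n buds and 42.5, 40.9 and 43.6 in high-R:FR n buds. The light groups overlapped in both buds. The log2 difference between low and high R:FR was -0.28 ± 0.17 (SE) in bud n-2 (limma adjusted p = 0.326) and 0.05 ± 0.17 in bud n (limma adjusted p = 0.995), and neither passed. Under low R:FR, ARR16 was lower in bud n-2 than in bud n, with mean log2 intensities of 4.99 ± 0.16 and 5.45 ± 0.13 (SD), a log2 difference of -0.47 ± 0.17 (SE) and limma adjusted p = 0.0302. That call was lost without replicate 2 or 3 of low-R:FR n-2 buds (adjusted p = 0.0992 and 0.0727) and without replicate 2 or 3 of low-R:FR n buds (adjusted p = 0.0678 and 0.103), and with no filter on dim signal (adjusted p = 0.0563). Under high R:FR the position difference of ARR16 was -0.13 ± 0.17 (SE) and did not pass (limma adjusted p = 0.586).

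The type-B regulators ARR18, ARR19 and ARR23, which belong to the family that activates type-A genes, and the type-C regulator ARR22 did not pass the filter. With CLV3 they are 5 genes whose intensities ran from 0.233 to 15.7 and stayed under the dim limit. Their highest rank within an array was 35.5%, for ARR23 in low-R:FR n-2 buds. No level or difference can be read from these probe sets.

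UGT76C1 and UGT76C2 encode glucosyltransferases that inactivate cytokinins by N-glucosylation. UGT76C2 intensity was 30.5, 29.3 and 31.7 in low-R:FR n-2 buds and 20.5, 10.7 and 26.4 in low-R:FR n buds. It was thus higher in bud n-2, by 0.76 ± 0.26 on the log2 scale (SE, limma adjusted p = 0.0225), and the arrays did not overlap. Under high R:FR it was 29.1, 41.4 and 34.1 in bud n-2 and 21.7, 24.5 and 18.6 in bud n, with a log2 difference of 0.69 ± 0.26 that did not pass (limma adjusted p = 0.0526) but did with 32 added before log2 (adjusted p = 0.0221) or with dim values raised (adjusted p = 0.00316). The call under low R:FR was lost with quantile normalization (adjusted p = 0.118), with median centring (adjusted p = 0.0736), and without replicate 2 of bud n (adjusted p = 0.144) or replicate 1 or 3 of bud n-2 (adjusted p = 0.0519 and 0.0605).

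UGT76C1 lay at the edge of the dim range and was dim on 6 of 12 arrays. Its intensity was 25.1, 23.4 and 26.8 in high-R:FR n-2 buds and 20.6, 14.1 and 13.0 in high-R:FR n buds. It was higher in bud n-2 by 0.68 ± 0.24 on the log2 scale (SE, limma adjusted p = 0.0382). The call was lost with quantile normalization (adjusted p = 0.219), with median centring (adjusted p = 0.107), with no filter (adjusted p = 0.0791) and without any 1 of 5 of the 6 arrays compared, replicate 1 of high-R:FR n buds being the exception (adjusted p = 0.0526 to 0.132). Under low R:FR UGT76C1 was 19.9, 17.9 and 30.2 in bud n-2 and 17.1, 18.1 and 18.4 in bud n, and these arrays overlapped. The log2 difference there was 0.31 ± 0.24 and did not pass (limma adjusted p = 0.311), though it did with dim values raised (adjusted p = 0.00655). For light, the log2 differences of UGT76C1 were -0.18 in bud n-2 and 0.19 in bud n, and those of UGT76C2 were -0.18 and -0.25, with limma adjusted p from 0.694 to 0.981.

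For light, 0 of the 3 tested cytokinin genes passed in bud n-2, where 9.83% of all probe sets tested did (4.34% higher and 5.49% lower under low R:FR). In bud n 0 of 3 passed, beside 0.0839% of all (0.07% higher and 0.014% lower). None of the 3 reached an unadjusted p under 0.05 in either bud (limma). Their median log2 difference was -0.18 in bud n-2 and 0.05 in bud n, beside 0.01 and 0.0015 over all probe sets tested. For position under high R:FR, 1 of 3 passed, UGT76C1, beside 34.5% of all (20.2% higher and 14.3% lower in bud n-2). In low R:FR 2 of 3 passed, ARR16 lower and UGT76C2 higher, beside 51.7% of all (28.4% higher and 23.3% lower). These shares are near the background. The balance of directions over all probe sets depended on the centring, since the share of calls higher in bud n-2 was 58.6% (high R:FR) and 54.9% (low R:FR) as deposited, against 30.1% and 33.3% after median centring. The response to light differed between the buds for 0 of 3, with 1.03% over all probe sets (0.343% positive and 0.686% negative) and 0 of 3 at an unadjusted p under 0.05 (limma). Most of the pathway was therefore not analysed here.

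Likeness to ARR15 was measured as the root mean square (RMS) difference of log2 intensity over 12 arrays, after each gene was centred on its own mean. A gene with no change at all would lie 1.02 from ARR15, and the median over 7742 other named genes was 1.05. The nearest was AT4G34950, at 0.56. Its intensity was 35.0, 36.0 and 55.3 in low-R:FR n-2 buds and 149.9, 105.9 and 135.3 in high-R:FR n-2 buds. In bud n it was 33.1, 40.8 and 30.5 under low R:FR and 69.4, 52.5 and 43.6 under high R:FR. AT4G34950 was never dim, and its log2 differences between low and high R:FR were -1.65 in bud n-2 and -0.65 in bud n. Unlike ARR15 on the deposited values, it did not have its lowest level in low-R:FR n-2 buds.

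The next 5 genes were AT1G53035, AT3G15650, AT3G44450, EXPA15 and AT5G50915, at RMS differences of 0.71, 0.73, 0.73, 0.75 and 0.75. EXPA15 encodes an alpha-expansin, a protein that loosens cell walls. Its intensity was 172.0, 213.0 and 215.4 in low-R:FR n-2 buds and 365.3, 336.6 and 336.7 in high-R:FR n-2 buds. In bud n it was 247.2, 280.0 and 270.3 under low R:FR and 322.7, 298.3 and 322.5 under high R:FR. Its groups thus kept the order of ARR15 with smaller steps, of -0.80 in bud n-2 and -0.24 in bud n on the log2 scale. All 5 genes had log2 differences of -0.93 to -0.80 in bud n-2, against -2.59 for ARR15. As these genes were picked for their likeness to ARR15, their differences are a description with no test.

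**Figure D4:**
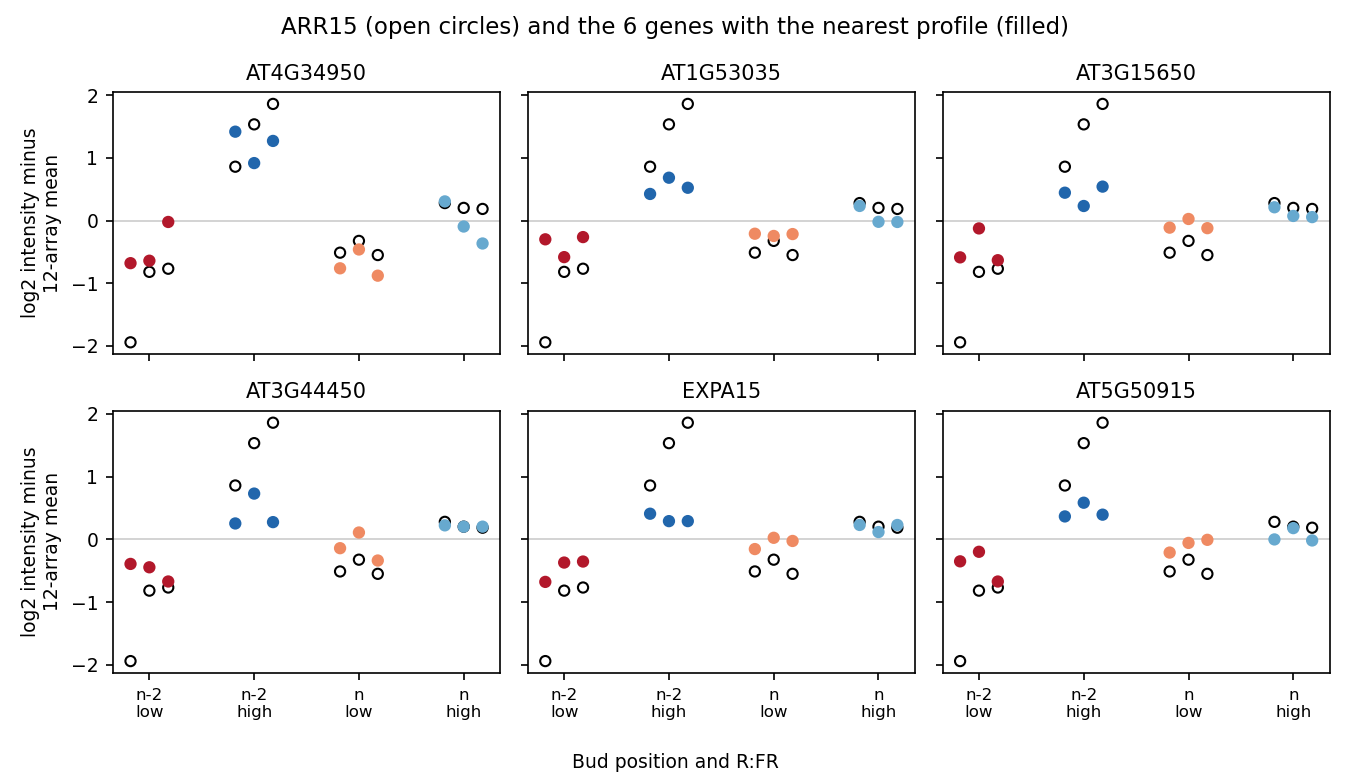
Log2 intensity minus the gene's own 12-array mean (vertical axis) for ARR15 (open circles, repeated in each panel) and the 6 genes with the smallest RMS difference from it (filled), by bud position and R:FR, with 1 point per array. AT4G34950 follows ARR15 at nearly its amplitude in high-R:FR n-2 buds, while the other 5 keep its direction with smaller steps.

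Across all 14295 probe sets tested, the 4 groups followed the order of ARR15 with no overlap for 6, or 0.042%. These were ARR15 itself, AT1G53035, AT3G15650, AT3G44450, EXPA15 and scpl35, a serine carboxypeptidase-like gene named here after its values were seen, with log2 differences between low and high R:FR of -0.49 in bud n-2 and -0.13 in bud n. The count is a description, since the order was taken from ARR15. Any of the 24 possible orders without overlap was held by 214 probe sets. By count the order of ARR15 ranked 6 among the 24, and the most frequent order was held by 72. From rank 12 on, orders were held by 0 probe sets, the reverse of the ARR15 order among them.

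The arrays differed in other ways that run with bud position or light. Median intensity was 42.4 to 44.1 in bud n-2 and 37.8 to 38.8 in bud n. After median centring the median position difference of all probe sets was -0.13 (high R:FR) and -0.15 (low R:FR), against 0.04 and 0.05 as deposited. The ARR15 position difference under high R:FR was 1.20 as deposited, 1.03 after median centring and 1.05 after quantile normalization. Median centring shifts all probe sets of an array alike, so the excess of ARR15 over the median, 1.15, could not change with it. RNA quality was gauged by the log2 ratio of the actin control probe sets at the 3-prime and 5-prime ends. It was 4.17 ± 0.15 in low-R:FR n-2 buds and 4.16 ± 0.12 in high-R:FR n-2 buds (SD, n = 3). It was 4.63 ± 0.15 in low-R:FR n buds and 4.31 ± 0.042 in high-R:FR n buds, so in bud n its mean was higher where ARR15 was lower. Both bud n means of the ratio also lay above both bud n-2 means, so it runs with position as well. The part of this ratio in the ARR15 differences by light or position was not tested.

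Of 31 markers of bud, leaf, vascular, floral and root tissue, 4 had a named probe set. LAS, which acts in axillary meristem initiation and was the 1 measured of 7 bud markers, was dim on all 12 arrays, so the labelled tissue could not be checked by its own markers beyond that. RCA, the rubisco activase gene of green tissue and the 1 measured of 7 leaf markers, had an intensity of 2855 to 3286 in low-R:FR n-2 buds and 2969 to 3667 in high-R:FR n-2 buds. In bud n, RCA had 2800 to 3072 under low R:FR and 2874 to 3373 under high R:FR, and it passed in none of the 5 contrasts (limma adjusted p = 0.461 and 0.981 for light in bud n-2 and bud n). Of 7 floral and anther markers 2 were measured, AMS, a bHLH gene needed for the tapetum, and AT5G07230. Their summed intensity was 549.9 to 1137 in low-R:FR n-2 buds and 503.6 to 778.4 in high-R:FR n-2 buds, against 153.3 to 241.2 in low-R:FR n buds and 318.4 to 398.4 in high-R:FR n buds. In bud n the sums of the light conditions did not overlap and were lower under low R:FR, as ARR15 was. Over all probe sets tested, 11.6% had groups that did not overlap in that contrast. AT5G07230 made up the larger part of every sum. In bud n-2 the sums overlapped. Both markers had a higher mean log2 intensity there under low R:FR, opposite to ARR15, AMS by 0.48 and AT5G07230 by 0.35. No other floral marker was named, and neither of these was dim on any array. Under low R:FR both were higher in bud n-2 than in bud n, AMS by 1.14 ± 0.19 and AT5G07230 by 2.43 ± 0.25 on the log2 scale (SE, limma adjusted p = 7.3e-05 and 5.7e-07). Under high R:FR, AT5G07230 was higher in bud n-2 by 1.18 ± 0.25 (limma adjusted p = 0.00155) and AMS was not (-0.03 ± 0.19, limma adjusted p = 0.929). Neither passed for light in either bud (limma adjusted p = 0.111 to 0.431). The part of floral tissue in the ARR15 differences was not tested.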

How the data were processed

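RNA was hybridised to 12 one-colour Affymetrix ATH1 arrays. The authors deposited linear intensity per probe set, for which the submitters' processing notes name MAS5 and GCOS without versions. The deposited intensity had a trimmed mean of 100 on every array (2% left out at each end), and MAS5 scales by 1 factor per array, which leaves differences in the shape of the distributions. Detection calls and scanner files were not used here.

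Of 22810 probe sets, 64 controls were left out. Intensities were log2-transformed with no offset, and 14295 probe sets that exceeded the 40th percentile of the same array at least 3 times in 12 were fitted with a mean per group in limma 3.58.1 (R 4.3.3; lmFit, eBayes with a trend; 8 residual and 9.18 prior degrees of freedom), with Benjamini-Hochberg adjustment over all of them and a threshold of 0.05. The code was tested on simulated data. A group dim on every array gives a bound, with its values raised to the percentile.

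Gene names came from the platform's annotation, updated by locus with the TAIR10.1 RefSeq table. It gave 1 gene for 13436 probe sets and several for 503; the 8794 it does not list stay unnamed. Genes with several probe sets are given by the brightest. Named genes are ARR15, the measured listed genes and the 6 nearest in RMS difference. ARR15, the lists and these rules were chosen with earlier results of these data known. Calls were repeated with median centring, quantile normalization, dim values raised, 32 added to each intensity, no filter and no trend. They were also repeated with a replicate block and leaving out each array. ARR15 differences were repeated in the same ways, except no filter and no trend, and the ARR15 bounds with other dim limits. The likeness ranking was repeated with Pearson correlation, 32 added and quantile normalization. The counts of orders without overlap were not repeated. The 12 arrays all held different values.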

Additional observations from a re-analysis of the deposited data

Results flagged for a closer look

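AMS responded differently to low R:FR in the 2 buds by the interaction term, by 1.17 ± 0.26 on the log2 scale (SE, limma adjusted p = 0.0426). AMS intensity was 123.6, 152.8 and 97.8 in low-R:FR n-2 buds and 103.1, 66.3 and 98.8 in high-R:FR n-2 buds. It was 69.4, 53.4 and 46.2 in low-R:FR n buds and 84.3, 83.6 and 101.2 in high-R:FR n buds. The log2 difference between low and high R:FR was 0.48 in bud n-2 and -0.69 in bud n, and neither passed on its own (limma adjusted p = 0.111 and 0.431). The call was lost with the replicate block (adjusted p = 0.0522), without the filter (adjusted p = 0.0702) and with no trend (adjusted p = 0.121). It was also lost without any 1 of 9 arrays (adjusted p = 0.0591 to 0.115), and was kept without high-R:FR n-2 replicate 1, high-R:FR n-2 replicate 3 or high-R:FR n replicate 1.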

How the results depend on the processing

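ARR15 differences are log2 values. With 32 added before log2 they were -1.24 and -0.30 for light in bud n-2 and bud n, -0.94 for the difference of responses, and 0.73 and -0.21 for position under high and low R:FR. Raising dim values gave -1.67 in bud n-2, -0.99 for the difference of responses and 0.21, reversed, for position under low R:FR. The bound of 3.18-fold became 1.64-fold with the 50th percentile as the dim limit. With each array left out, the ranges were -2.87 to -2.21 in bud n-2, -0.75 to -0.64 in bud n, 0.97 to 1.47 and -0.92 to -0.33 for position under high and low R:FR, and -2.19 to -1.53 for the difference of responses. Of the 6 genes most like ARR15, 3 were kept with Pearson correlation, 3 with 32 added and 5 with quantile normalization.

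Calls for the difference of responses, 147 of 14295, were 231 with quantile normalization, 230 with 32 added, 90 with no filter and 0 with no trend in limma (2038 at an unadjusted p under 0.05). With each array left out, calls for the difference of responses were 264 without high-R:FR n replicate 1, 82 without high-R:FR n-2 replicate 2, and 2 to 19 without any 1 of low-R:FR n-2 replicates 1 and 3, low-R:FR n replicates 1 to 3 and high-R:FR n replicates 2 and 3. Calls were 646 and 773 for light in bud n-2 without low-R:FR n-2 replicate 3 and replicate 1 (up to 1632 without others), 8 to 17 for light in bud n, and 3918 to 4962 and 6376 to 7755 for position under high and low R:FR. Among position calls under high R:FR, the share higher in bud n-2 was 58.6% as deposited, 49.3% with quantile normalization and 30.1% with median centring; under low R:FR these shares were 54.9%, 46.1% and 33.3%. Of calls for the difference of responses, 33.3% were positive as deposited, 48.7% with 32 added and 44.6% with dim values raised.

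Of 3 cytokinin genes, 1 passed for position under high R:FR, 0 with quantile normalization, median centring or no filter, and 2 with 32 added or dim values raised (0 to 2 with each array left out). Under low R:FR 2 passed, 1 with quantile normalization or median centring, and 3 with dim values raised (0 to 2 with each array left out). The cause of these changes was not tested. Replicate numbers are shared between groups, but deviations of same-numbered arrays from their group means correlated at only -0.12 to 0.08. Whether the numbers pair arrays is not settled. With replicate number as a block, 1274, 13, 4792, 7212 and 105 probe sets passed in the 5 contrasts, against 1405, 12, 4934, 7388 and 147. The counts of cytokinin calls did not change. The ARR15 differences could not change, because every group holds each replicate number. Every array was nearest its own number for position under high R:FR (correlations of 0.02 to 0.04) and in no other contrast. ARR15 lay in the dim range on 3 of 12 arrays and at its edge on 3, which limits what its differences show.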
